A study of Mus musculus with 48 samples.

Results

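The collagen genes described here are the 44 protein-coding genes of GENCODE mouse release M21 whose symbol is Col, a number, the letter a and a number, such as Col1a1, out of 34932 genes with a transcript in the deposited files. They were chosen by symbol and not by any measured value. By the structures that their products form, they were divided into 11 fibrillar, 6 basement membrane, 6 beaded filament, 3 network forming, 9 fibril associated, 4 transmembrane and 2 multiplexin genes, the anchoring fibril gene Col7a1, and 2 others, Col26a1 and Col28a1. RNA came from sorted CD4+ and CD8+ T cells and from CD45+CD4-CD8- leukocytes (called CD45+ cells here), taken from subcutaneous B16F10 tumors, a transplanted mouse melanoma, and from the tumor-draining inguinal lymph nodes (TDLNs). T cells sorted from tumors are called TILs. The 48 libraries form 12 groups of 4, which cover 2 genotypes, both tissues and the 3 populations. All mice were young adults of the C57BL/6J strain and all bore B16F10 tumors. Tumors were digested with collagenase type I and DNase before sorting, and libraries were made from low-input RNA with the SMART-Seq v4 kit. In Yap-cKO mice, Cre driven by the Cd4 promoter deletes loxP-flanked Yap from the CD4+CD8+ stage of T cell development onward, and a loxP-stop EYFP reporter marks the cells. The controls were WT littermates. CD45+ cells of Yap-cKO mice carry the same alleles, but the Cd4 promoter is chiefly active in T lineage cells.

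Collagens are secreted or membrane-anchored proteins in which chains wind into a stiff helix. Fibrillar collagens give tissues their tensile strength and are made mainly by fibroblasts and related mesenchymal cells, whereas type IV collagen forms the sheet on which endothelial and epithelial cells rest and is made by endothelial cells and by the pericytes around them. T cells are not known as a major source of either. Chains are hydroxylated and folded in the endoplasmic reticulum, trimmed outside the cell and cross-linked by lysyl oxidases. YAP, the product of Yap1, acts in the nucleus through TEAD transcription factors.

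The libraries held 12656302 to 24213689 counts on genes, so that 3 counts of a gene correspond to 0.124 to 0.237 CPM (a gene's counts scaled to a common library total after TMM scaling) and lower values cannot be told apart from 0. Cd4 and Cd8a matched the labels of the T cells. Cd4 lay between 96.3 and 1085 CPM in CD4+ libraries and at most at 5.88 CPM in CD8+ libraries. Cd8a lay between 203 and 1290 CPM in CD8+ libraries and at most at 7.53 CPM in CD4+ libraries. In CD45+ libraries Cd4 reached 50.7 CPM and Cd8a 11.15 CPM. Ptprc, which encodes CD45, stood at 93.5 CPM in Yap-cKO CD4+ TIL replicate 3 against 985 to 1345 CPM in the rest of its group. Yap1 lay between 14.2 and 25.4 CPM in WT CD4+ TILs against 1.71 to 5.70 CPM in Yap-cKO CD4+ TILs, and between 12.6 and 25.3 CPM against 2.43 to 6.48 CPM in CD8+ TILs. In CD45+ cells from tumors it lay between 2.80 and 5.40 CPM in WT and between 1.48 and 2.09 CPM in Yap-cKO mice. In the 24 TDLN libraries Yap1 stayed between 1.10 and 4.36 CPM in both genotypes, so there the labels could not be checked by its level. Some libraries stood apart. WT CD8+ TIL replicate 2 was the highest of its group for 20 of the 28 collagen genes with more than 3 counts in all 4 libraries, WT CD4+ TIL replicate 3 for 17 of 26, and Yap-cKO CD4+ TIL replicate 3 for 14 of 21. Reads of the Y-linked genes Ddx3y and Eif2s3y, at 204 counts or more in each of the 18 libraries of WT replicates 1 to 3, reached at most 8 counts in WT replicate 4 and in the Yap-cKO libraries. This difference between libraries therefore follows the genotype in all but WT replicate 4, and its part in the results was not tested. The labels do not say how replicates relate to animals, and p-values measure the spread between these libraries.

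All 44 collagen genes had more than 3 counts in at least 1 library, and 3 of them (Col11a2, Col26a1 and Col27a1) had more than 3 in all 48. Summed over the 44 genes, collagen reached 1040 ± 624 CPM (SD, n = 4) in WT CD4+ TILs and 1482 ± 2000 CPM in WT CD8+ TILs, against 134 ± 157 CPM in Yap-cKO CD4+ TILs and 40.5 ± 27.2 CPM in Yap-cKO CD8+ TILs. CD45+ cells from tumors lay at 144 ± 51.6 CPM in WT libraries and 75.5 ± 35.5 CPM in Yap-cKO mice. In all 24 TDLN libraries the sum lay between 11.9 and 33.2 CPM. The tumor libraries of T cells held both the highest and some of the lower sums, from 43.2 to 1726 CPM in CD4+ TILs and from 21.5 to 4460 CPM in CD8+ TILs. In bulk RNA from sorted cells, fewer cells of a type and less RNA per cell cannot be told apart.

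Per length, the mean TPM over the 24 tumor libraries was led by Col4a1 (45.1 TPM), Col4a2 (20.2 TPM), Col18a1 (13.7 TPM), Col3a1 (11.8 TPM), Col6a1 (6.36 TPM), Col6a2 (5.54 TPM) and Col1a1 (5.37 TPM). The WT TILs weigh most in this mean, since the 44 genes together reached 442 TPM in WT CD8+ and 274 TPM in WT CD4+ TILs against 17.95 to 37.7 TPM in the other 4 tumor groups. In Yap-cKO CD4+ TILs Col18a1 (7.45 TPM) stood above Col4a1 (5.87 TPM), and in Yap-cKO CD8+ TILs and CD45+ tumor cells Col26a1 followed Col4a1. The leading pair encodes the ubiquitous chains of type IV collagen, the network of basement membranes. Col4a1 and Col4a2 together made up 58.0% of all collagen TPM in WT CD8+ TILs, 38.3% in WT CD4+ TILs and 39.1% in WT CD45+ cells. Single libraries weigh on such shares, since Col4a1 stood at 570 TPM in WT CD8+ TIL replicate 2 against 20.97 to 92.2 TPM in the other 3, and at 17.95 TPM in Yap-cKO CD4+ TIL replicate 3 against 0.793 to 2.89 TPM. In the 6 TDLN groups their share was 1.27% to 11.6%. There Col26a1 or Col11a2 led the TPM order in each group. Nearly all Col26a1 counts fell on transcripts not annotated as protein-coding, which held all but 0.42% of them, and in Col27a1 all but 8.39%, so these values do not measure the protein-coding messages.

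**Figure D1:**
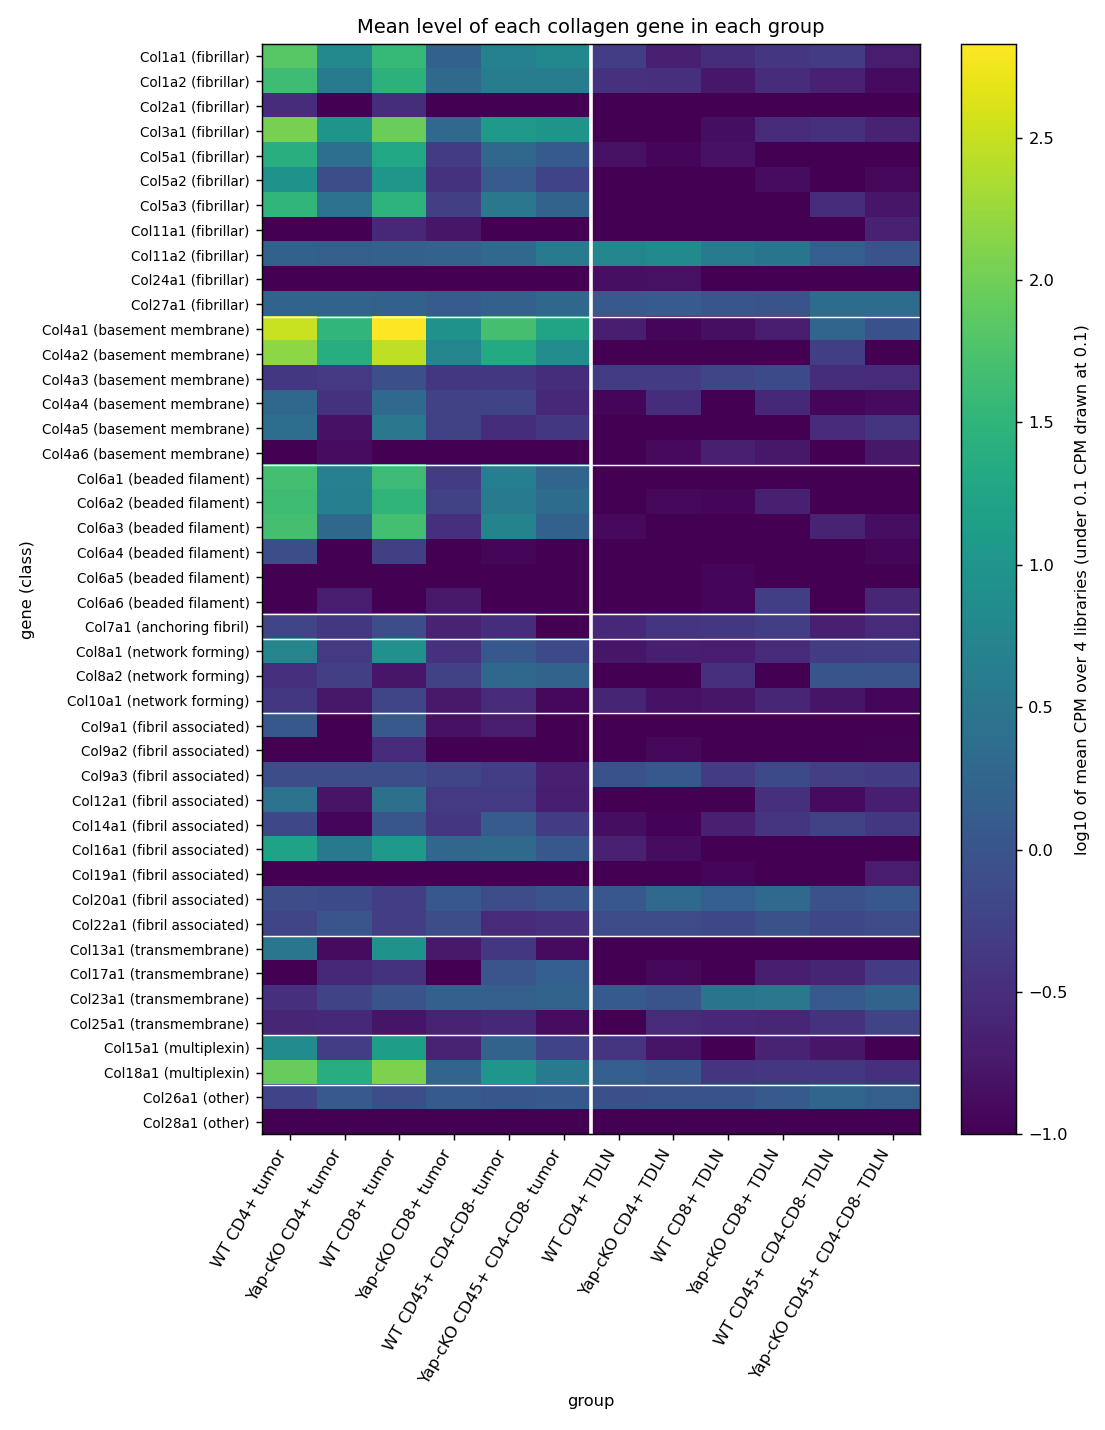
Mean CPM (colour, log10 scale) of each of the 44 collagen genes (rows, grouped by class) in the 12 groups of 4 libraries (columns, tumor groups left and TDLN groups right, separated by white lines). High levels concentrate in the 2 WT TIL groups, with Col4a1 and Col4a2 as the brightest rows, and in TDLN groups few genes exceed 1 CPM.

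Class sums were highest in WT TILs for the basement membrane, fibrillar and beaded filament genes. Basement membrane genes summed to 165 to 729 CPM in WT CD4+ TILs against 5.34 to 209 CPM in Yap-cKO CD4+ TILs, and to 141 to 2929 CPM against 3.56 to 48.6 CPM in CD8+ TILs. Fibrillar genes summed to 95.6 to 562 CPM against 11.04 to 67.9 CPM in CD4+ TILs and to 39.2 to 678 CPM against 7.25 to 14.7 CPM in CD8+ TILs. Only the basement membrane ranges of CD4+ TILs overlapped among these 4 contrasts. In CD45+ cells from tumors, the fibrillar ranges overlapped (20.99 to 43.3 CPM in WT libraries and 14.3 to 54.3 CPM in Yap-cKO mice), and so did the basement membrane ranges (30.2 to 132 CPM against 16.2 to 37.9 CPM). Beaded filament genes, which encode the microfibrils of type VI collagen, summed to 30.7 to 254 CPM in WT CD4+ TILs and 15.1 to 391 CPM in WT CD8+ TILs, but to at most 1.78 CPM in each TDLN library. The fibrillar sum in TDLNs, 3.08 to 11.04 CPM, was made up largely of Col11a2 and Col27a1.

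**Figure D2:**
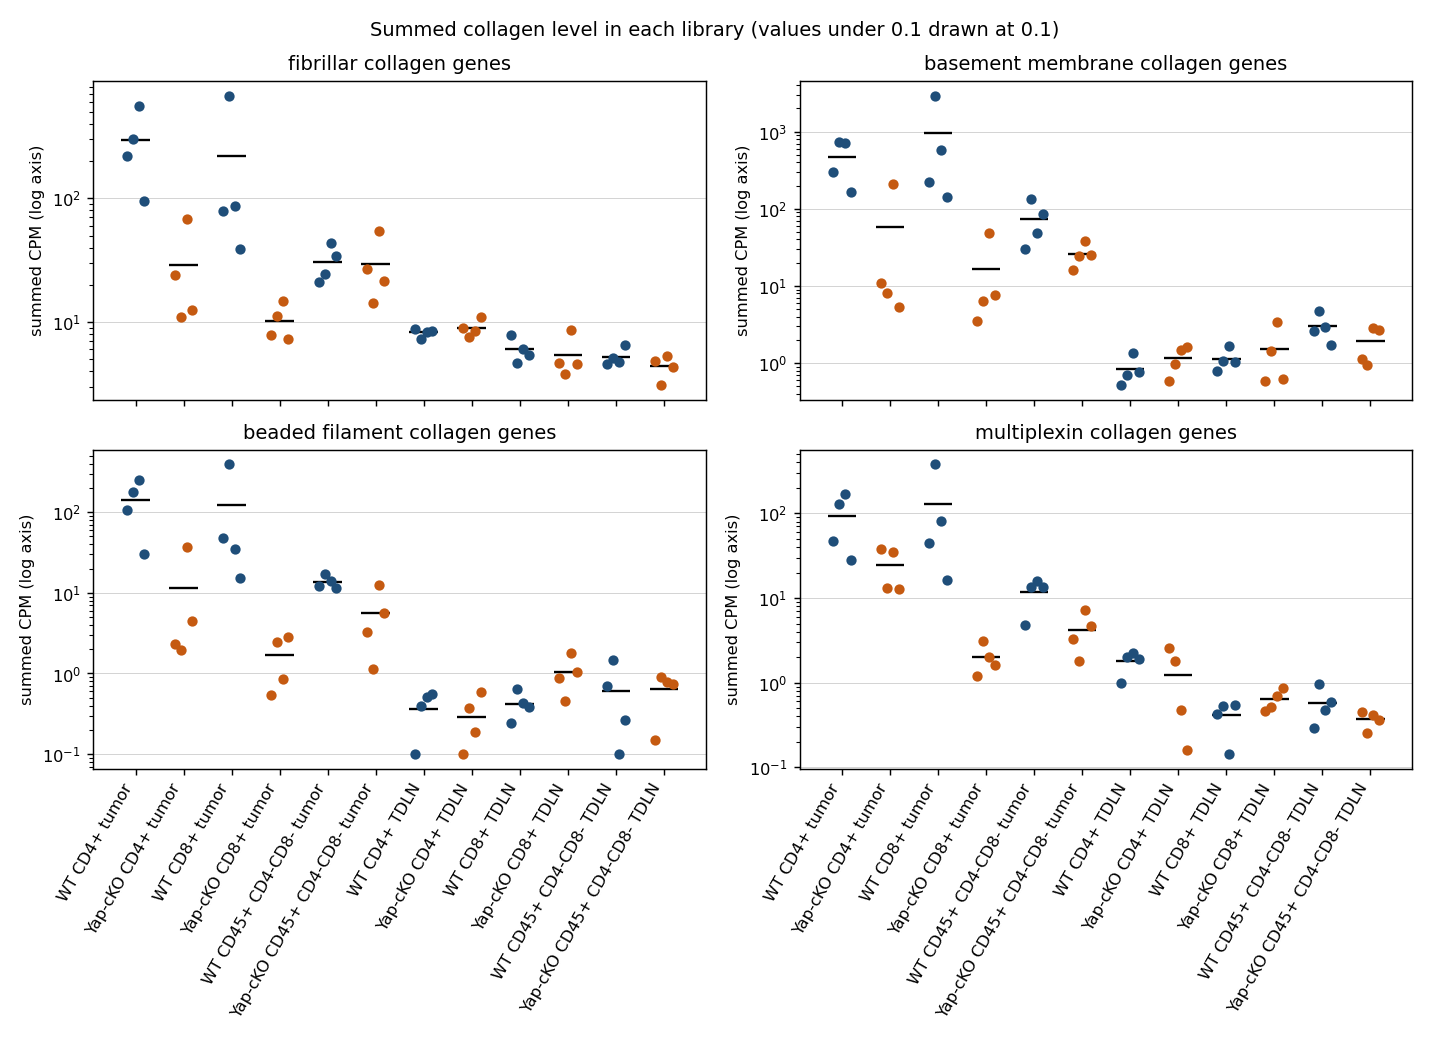
Summed CPM (log axis, values under 0.1 drawn at 0.1) of the fibrillar, basement membrane, beaded filament and multiplexin genes in every library of the 12 groups, with WT in blue, Yap-cKO in orange and a line at each group mean. The 8 WT TIL libraries lie above the TDLN libraries in all 4 panels, and Yap-cKO CD4+ TIL replicate 3 and WT CD8+ TIL replicate 2 lie above the rest of their groups in the basement membrane panel.

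The bases before the start sites of 4 members are shown because these genes carry the contrasts that follow. Col3a1 was the leading fibrillar gene, Col18a1 and Col15a1 are the multiplexin pair, and Col11a2 had the highest CPM of the collagen genes in each CD4+ TDLN library. The sequences are RefSeq promoter windows of GRCm38.p6, 5′ to 3′ on the strand of the gene and ending before the first annotated exon, and capitals mark any of the following runs of letters or their reverse complements. The run TATAAA is the core promoter box before many start sites, the run CCAAT binds the factor NF-Y, the run GGGCGG is the GC box of SP1, and the run CATTCC is the core bound by TEAD factors.
Col3a1, chr1:45311288-45311537, plus strand: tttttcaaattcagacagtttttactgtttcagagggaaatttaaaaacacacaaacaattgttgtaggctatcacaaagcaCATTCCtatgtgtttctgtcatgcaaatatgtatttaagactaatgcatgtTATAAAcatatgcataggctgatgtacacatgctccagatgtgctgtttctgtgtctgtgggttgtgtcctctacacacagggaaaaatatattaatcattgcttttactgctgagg
Col15a1, chr4:47207762-47208011, plus strand: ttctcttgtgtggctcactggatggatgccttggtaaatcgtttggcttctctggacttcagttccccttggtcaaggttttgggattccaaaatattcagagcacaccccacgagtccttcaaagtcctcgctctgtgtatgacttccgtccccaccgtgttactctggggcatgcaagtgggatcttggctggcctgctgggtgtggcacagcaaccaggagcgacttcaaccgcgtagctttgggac
Col18a1, chr10:77166549-77166780, minus strand: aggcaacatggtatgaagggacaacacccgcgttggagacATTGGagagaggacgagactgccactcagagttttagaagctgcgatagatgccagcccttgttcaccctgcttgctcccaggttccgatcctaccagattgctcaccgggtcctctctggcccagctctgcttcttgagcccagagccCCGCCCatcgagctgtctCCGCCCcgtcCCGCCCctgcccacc
Col11a2, chr17:34038888-34039137, plus strand: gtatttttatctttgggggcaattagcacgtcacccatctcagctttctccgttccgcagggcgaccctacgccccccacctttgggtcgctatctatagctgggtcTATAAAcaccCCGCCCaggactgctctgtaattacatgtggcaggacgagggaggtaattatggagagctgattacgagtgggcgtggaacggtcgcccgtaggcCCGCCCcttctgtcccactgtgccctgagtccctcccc
The Col3a1 window holds CATTCC 168 bases and TATAAA 117 bases before the RefSeq start. The Col18a1 window lies before the upstream start, whose transcript held 98.3% of the Col18a1 counts in WT CD4+ TILs and 99.3% in WT CD8+ TILs, and has 3 GC boxes within 61 bases of the start and a CCAAT box 210 bases before it. Col11a2 has TATAAA 143 bases before its RefSeq start and 2 GC boxes, and Col15a1 has none of the 4 motifs. The transcript with 65.3% of the Col11a2 counts starts at chr17:34039437, downstream of the RefSeq start at 34039138. Col15a1 also starts further downstream in GENCODE (chr4:47208161) than in RefSeq (47208012). A window of 250 bases before and 50 after a start was found for 35 members, 38 windows in all. The TEAD core on either strand was in 5 of these 38 windows (13.2%), against 14.7% of all 32851 windows. TATAAA was in 13.2% against 13.6%, CCAAT in 34.2% against 37.4% and GGGCGG in 60.5% against 35.7%. No motif searched overlapped another in the printed windows, and a match is a run of letters and not a measured site.

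The comparison of Yap-cKO with WT asks whether collagen RNA differed between genotypes within each sorted population. A gene was called when the edgeR quasi-likelihood test gave a Benjamini-Hochberg adjusted p under 0.05 over all tested genes and an absolute log2 fold change above 1, and values after ± are standard errors. In CD4+ TILs, 25 members passed the count filter, 0 were higher and 11 were lower in Yap-cKO mice. Over all 14205 genes tested there, 1.36% were called higher and 6.66% lower. Col8a1, Col12a1 and Col13a1, which were among the 11, passed the filter through the WT libraries alone and had to differ. The median log2 fold change of the 25 was -3.22 against 0.14 over all genes, a description and not a test. In CD8+ TILs, 27 members were tested, 0 were higher and 14 were lower, while 3.03% of 14121 genes were called higher and 9.14% lower. Col6a3 and Col15a1, which were among the 14, passed through the WT libraries alone and had to differ. The median of the 27 was -3.85 against 0.08 over all genes. By class, calls covered 6 of 8 tested fibrillar genes in each TIL population, 0 of 3 basement membrane genes in CD4+ and 2 of 4 in CD8+ TILs, 1 of 3 and 3 of 3 beaded filament genes, 1 of 1 network forming gene, 1 of 5 and 0 of 7 fibril associated genes, and 1 of 2 and 2 of 2 multiplexin genes.

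Fibrillar genes were led by Col3a1 and Col1a1. Col3a1 encodes the type III chain of flexible fibrils and stood at 93.1, 126, 194 and 26.2 CPM in WT CD4+ TIL replicates 1 to 4, against 11.5, 2.81, 18.9 and 4.65 CPM in Yap-cKO CD4+ TILs. The genotypes did not overlap, and the log2 fold change was -3.52 ± 0.71 (adjusted p = 0.0158). In CD8+ TILs Col3a1 stood at 28.2, 299, 32.04 and 8.24 CPM in WT against 1.84, 3.03, 1.97 and 1.29 CPM in Yap-cKO mice. Replicate 2 was the high WT library, no Yap-cKO library reached the lowest WT value, and the log2 fold change was -5.57 ± 1.07 (adjusted p = 0.0185). Col1a1, a chain of type I collagen, the main fibril of skin and bone, stood at 25.1, 61.2, 160 and 28.9 CPM in WT CD4+ TILs and at 3.76, 1.79, 18.3 and 1.43 CPM in Yap-cKO CD4+ TILs. Replicate 3 was the highest in each genotype, the groups did not overlap, and the change was -3.41 ± 0.91 (adjusted p = 0.0441). In CD8+ TILs it stood at 10.1, 115, 13.8 and 7.80 CPM against 0.950, 1.37, 3.44 and 0.467 CPM, without overlap and with a change of -4.63 ± 1.01 (adjusted p = 0.0221). The Col1a1 call in CD4+ TILs was lost, with adjusted p between 0.0559 and 0.110, when any of WT replicates 1 to 3 or Yap-cKO replicates 1, 2 and 4 was left out.

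The partner chains of these fibrils changed alongside. Col1a2, which pairs with Col1a1, fell by 3.44 ± 0.77 on the log2 scale in CD4+ TILs (adjusted p = 0.0215) and by 3.85 ± 0.81 in CD8+ TILs (adjusted p = 0.0203). Type V chains, which sit in the core of type I fibrils and set their width, were called in both populations. Col5a2 fell by 3.48 ± 0.67 in CD4+ TILs (adjusted p = 0.0139) and by 4.91 ± 1.06 in CD8+ TILs (adjusted p = 0.0216). Col5a1 fell by 3.34 ± 0.87 and 5.40 ± 1.05, and Col5a3 by 3.54 ± 0.90 and 5.82 ± 1.24, with adjusted p between 0.0185 and 0.0399. The CD4+ TIL groups overlapped for Col5a3, since Yap-cKO replicate 3 at 8.27 CPM exceeded WT replicate 4 at 7.52 CPM. The remaining tested fibrillar genes, Col11a2 and Col27a1, were not called. Col11a2 stood at 0.701 to 3.01 CPM in WT libraries and 0.951 to 1.73 CPM in Yap-cKO CD4+ TILs (log2 fold change -0.15 ± 0.58).

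In each of the 8 WT TIL libraries the basement membrane sum was the highest of the class sums, whereas in Yap-cKO CD4+ TIL replicates 1, 2 and 4 (10.8, 8.07 and 5.34 CPM) it lay below the fibrillar sum (24.1, 11.04 and 12.6 CPM). Col4a1 stood at 173, 497, 499 and 112 CPM in WT CD4+ TILs and at 5.53, 4.82, 119 and 3.38 CPM in Yap-cKO CD4+ TILs. Replicates 1, 2 and 4 of Yap-cKO mice lay far below WT and replicate 3 lay within the WT range, so the groups overlapped. Col4a1 was not called there, with a log2 fold change of -3.20 ± 1.14 (adjusted p = 0.115). With Yap-cKO replicate 3 left out, a library that had been seen to be high, Col4a1 was called at -6.21 (adjusted p = 0.000796), and with any other single library left out it was not (-2.82 to -3.62, adjusted p from 0.109 to 0.233). Col4a2, its partner chain, stood at 115, 228, 206 and 48.4 CPM against 4.12, 2.27, 88.1 and 1.37 CPM, with the same high library, and was not called at -2.58 ± 1.18 (adjusted p = 0.207). Without Yap-cKO replicate 3 the Col4a2 change was -5.94 (adjusted p = 0.000796), and without any other single library it was not called (-2.18 to -2.89, adjusted p from 0.185 to 0.371). In CD8+ TILs both were called. Col4a1 stood at 130, 2066, 403 and 95.8 CPM in WT libraries and at 1.54, 4.34, 28.7 and 3.04 CPM in Yap-cKO mice, a change of -6.24 ± 1.33 (adjusted p = 0.0209). Col4a2 stood at 83.1, 855, 174 and 39.2 CPM against 1.31, 1.89, 16.5 and 2.57 CPM, a change of -5.77 ± 1.21 (adjusted p = 0.0203). Replicate 2 of WT was the high library for both, replicate 3 was the high Yap-cKO library, and the genotypes did not overlap. Col4a4, a chain of the specialised type IV network of kidney and lung, stood at most at 3.08 CPM and was not called in either TIL population (-2.36 ± 0.81 and -1.93 ± 0.90).

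**Figure D3:**
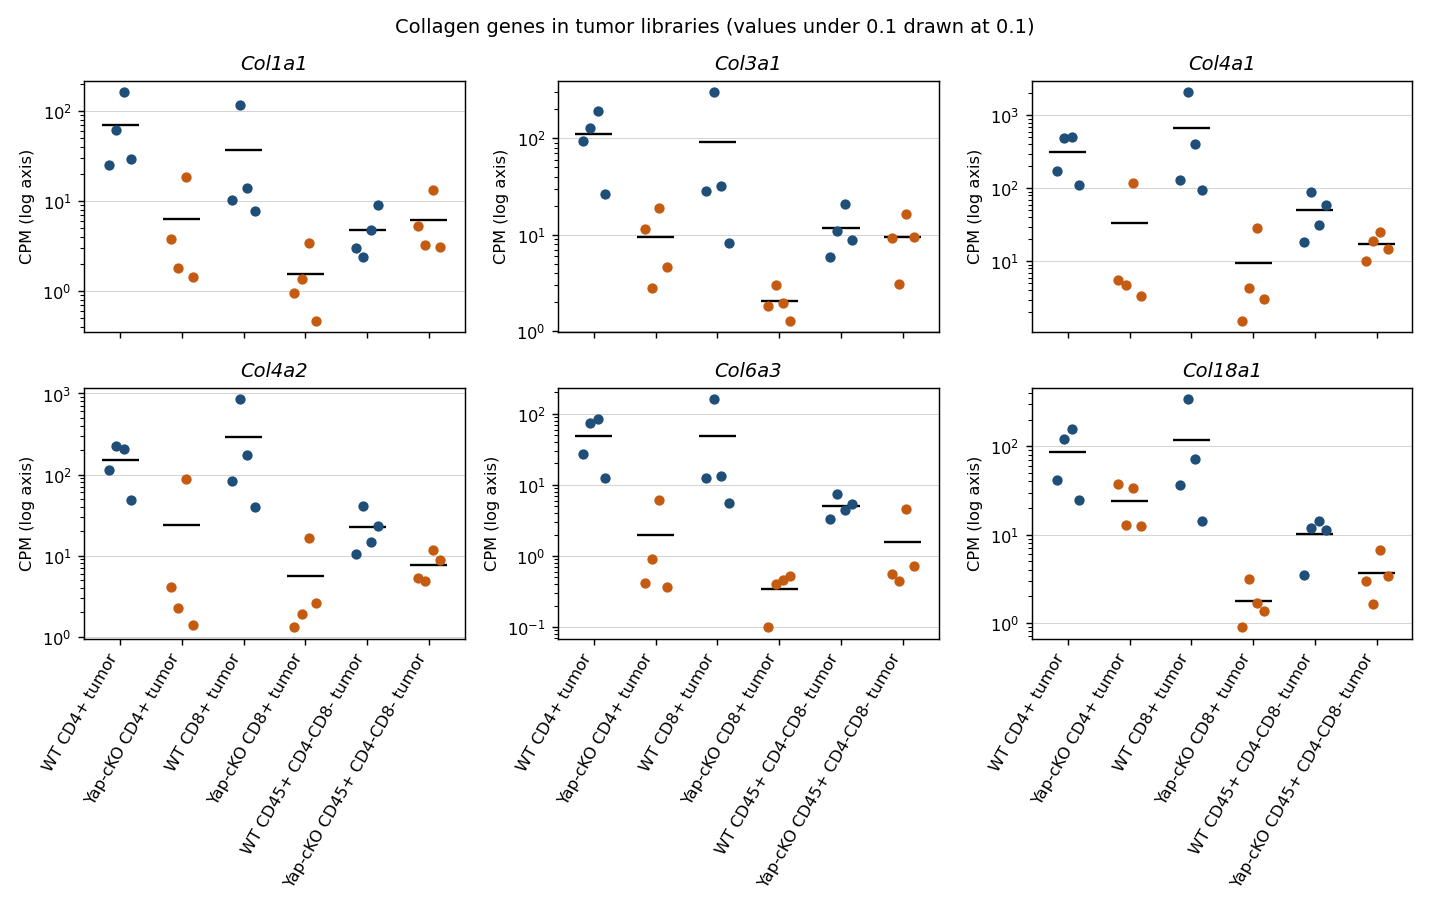
CPM (log axis) of Col1a1, Col3a1, Col4a1, Col4a2, Col6a3 and Col18a1 in each library of the 6 tumor groups, with WT in blue, Yap-cKO in orange and a line at each group mean. In CD8+ TILs all Yap-cKO points lie below all WT points in each panel, while in CD4+ TILs the Yap-cKO replicate 3 points of Col4a1 and Col4a2 lie within the WT range and in CD45+ cells the genotypes overlap.

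Beaded filament genes encode the chains of type VI collagen, a microfibril that links cells to the matrix around them. Col6a3 stood at 27.1, 73.1, 85.4 and 12.3 CPM in WT CD4+ TILs and at 0.412, 0.920, 6.19 and 0.370 CPM in Yap-cKO CD4+ TILs, with no overlap and a change of -4.61 ± 1.00 (adjusted p = 0.0199). In CD8+ TILs it stood at 12.3, 161, 13.4 and 5.61 CPM against 0, 0.400, 0.455 and 0.526 CPM, a change of -7.15 ± 1.304 (adjusted p = 0.0180). Col6a3 passed the count filter there through the WT libraries alone. Col6a1 and Col6a2 were called in CD8+ TILs, at -6.49 ± 1.24 and -5.92 ± 1.15 (both adjusted p = 0.0185). In CD4+ TILs neither was called, at -3.29 ± 1.19 and -3.22 ± 1.01 (adjusted p = 0.118 and 0.0784), and Yap-cKO replicate 3, at 15.9 CPM of Col6a1, lay above WT replicate 4, at 10.5 CPM.

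Multiplexins are basement membrane proteoglycans, and the end of the Col18a1 product is released as endostatin, an inhibitor of angiogenesis. Col18a1 stood at 36.1, 345, 71.8 and 14.3 CPM in WT CD8+ TILs and at 0.891, 3.14, 1.67 and 1.34 CPM in Yap-cKO CD8+ TILs, with no overlap and the smallest p of all members there (log2 fold change -6.12 ± 1.01, adjusted p = 0.0180). In CD4+ TILs it stood at 41.2, 121, 159 and 24.5 CPM in WT against 37.4, 12.8, 33.6 and 12.5 CPM in Yap-cKO mice. These groups overlapped and Col18a1 was not called, at -1.84 ± 0.60 (adjusted p = 0.0895). Col15a1, which lies between basement membranes and the fibrils beneath them, stood at 5.34, 8.22, 10.9 and 3.81 CPM against 0.118, 0.379, 1.41 and 0.106 CPM in CD4+ TILs. It was called there at -3.79 ± 0.79 (adjusted p = 0.0180). In CD8+ TILs Col15a1 lay between 2.03 and 33.9 CPM in WT and between 0 and 0.354 CPM in Yap-cKO libraries. It passed the count filter there through the WT libraries alone and had to differ. Its change of -5.85 ± 1.01 (adjusted p = 0.0180) is therefore not free of the filter.

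Among the other classes, Col8a1, a network forming gene of vessel walls and of the membrane under the corneal endothelium, passed the count filter in CD4+ TILs through the WT libraries alone. It stood there at 7.12, 2.52, 7.02 and 5.57 CPM in WT against 0.294, 0.433, 0.552 and 0.476 CPM in Yap-cKO mice, a change of -3.65 ± 0.51 (adjusted p = 0.00648). In CD8+ TILs it stood at 3.91, 22.9, 3.27 and 4.45 CPM against 0.119, 0.457, 0.253 and 0.584 CPM, a change of -4.65 ± 0.82 (adjusted p = 0.0180). Its groups did not overlap in either population. Col12a1, a fibril associated gene, and Col13a1, a membrane-anchored collagen of cell-matrix contacts, were called in CD4+ TILs at -4.00 ± 0.87 (adjusted p = 0.0196) and -4.53 ± 0.98 (adjusted p = 0.0197). Both passed the count filter there through the WT libraries alone and had to differ. Col13a1 was not tested in CD8+ TILs, because too few libraries reached 10 counts, and its 4 WT libraries stood there at 5.83, 27.2, 3.99 and 0.385 CPM against 0 to 0.409 CPM, with overlap. Col16a1, the leading fibril associated gene per length, stood at 20.3, 21.1, 11.5 and 14.7 CPM in WT CD4+ TILs and at 0.353, 2.60, 9.32 and 1.64 CPM in Yap-cKO CD4+ TILs. The groups did not overlap, but the change of -2.25 ± 0.76 was not called (adjusted p = 0.0982). Col9a3, next in that class, differed little between genotypes in CD4+ TILs (-0.04 ± 0.56). Col7a1, which anchors the epidermis to the dermis, was tested in neither TIL comparison and stayed at or under 1.28 CPM in all TIL libraries.

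**Figure D4:**
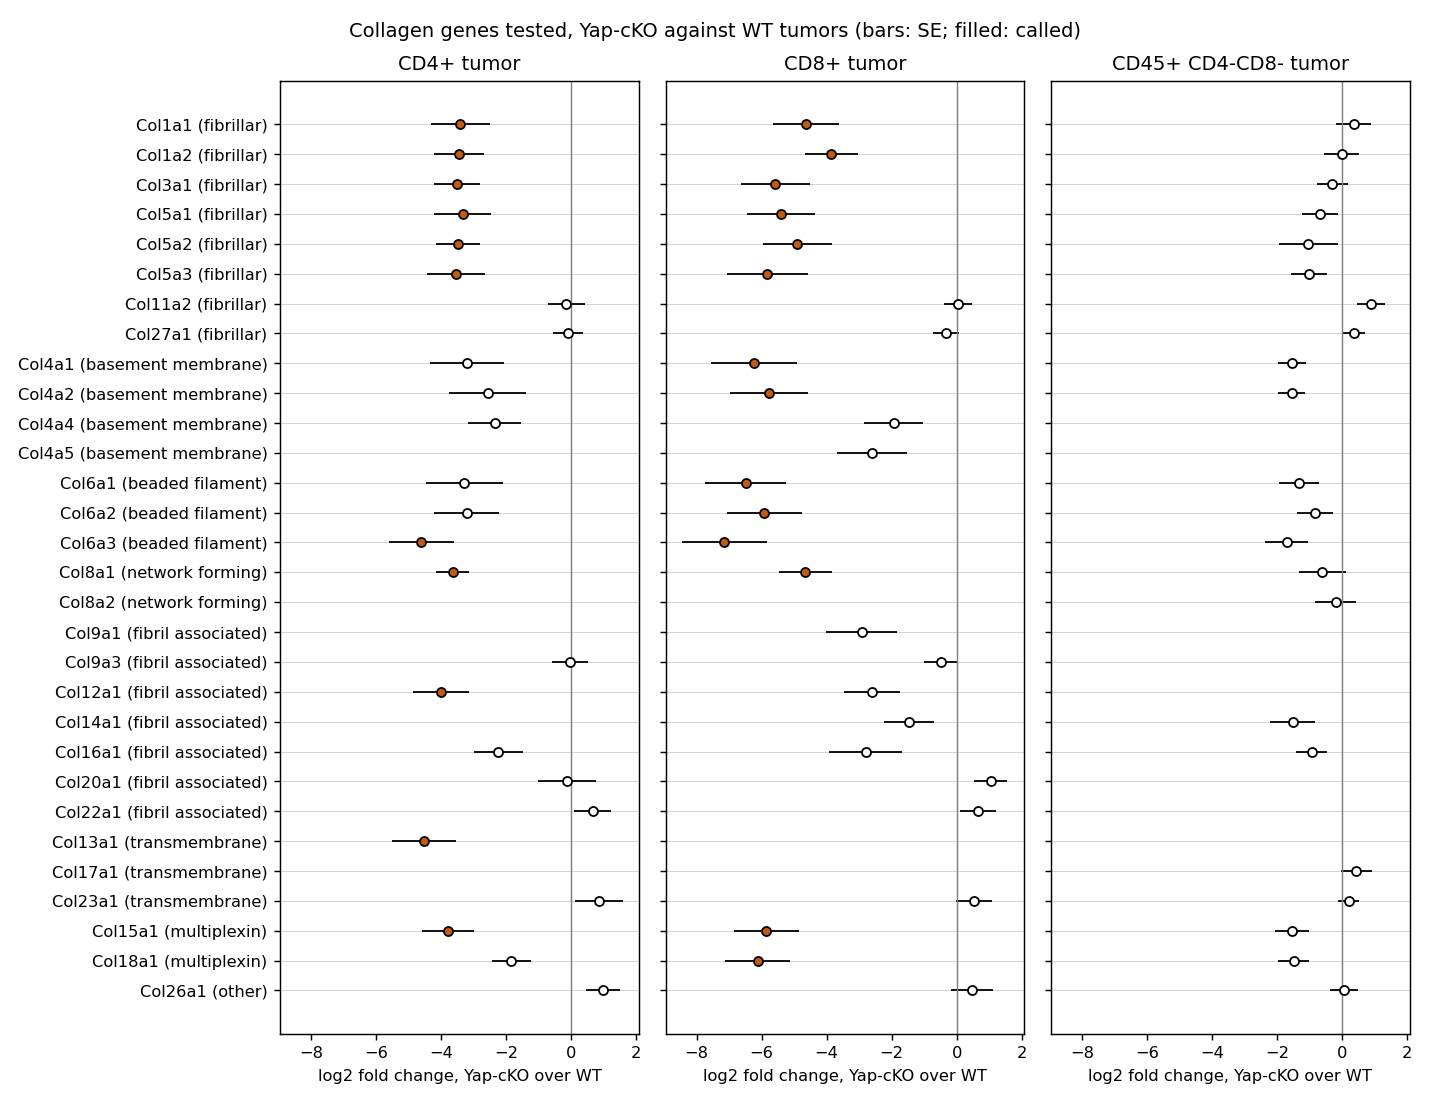
Log2 fold change of Yap-cKO over WT (points, with bars of 1 standard error) for each collagen gene tested in CD4+ TILs, CD8+ TILs and CD45+ tumor cells, with filled points for called genes. The 11 filled points in CD4+ TILs and the 14 in CD8+ TILs all lie below -3, and CD45+ cells have 0 filled points.

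The counts depended on single libraries. In CD4+ TILs, 19 members were called after leaving out replicate 3 of each genotype, the libraries highest in collagen, 20 without Yap-cKO replicate 3 alone, and 2, 3, 6, 7 and 7 without Yap-cKO replicate 4, Yap-cKO replicate 2, WT replicate 1, WT replicate 2 or Yap-cKO replicate 1. In CD8+ TILs, 15 were called without WT replicate 2 and Yap-cKO replicate 3, 9 without Yap-cKO replicate 4 and 0 without Yap-cKO replicate 2. With the replicate number as a block, 14 members were called in CD4+ TILs and 0 in CD8+ TILs. A comparison with WT replicate 4 alone, the WT replicate low in Y-linked reads, called 0 genes of the whole table in CD4+ TILs and 1 in CD8+ TILs, so it could show nothing about the members. Scaling the libraries by 15 T lineage genes instead moved the median log2 fold change of all genes by -1.31 in CD4+ and -1.23 in CD8+ TILs. With it 18 and 20 members were called, all lower. Over all genes, that scaling turned 193 higher and 946 lower calls in CD4+ TILs into 17 and 3768, and 428 and 1291 in CD8+ TILs into 6 and 6054.

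Lists of genes that serve collagen were counted in the same comparisons, in which 6.66% of all genes were called lower in CD4+ TILs and 9.14% in CD8+ TILs. Of the folding and modification enzymes, 5 of 16 tested were called lower in CD4+ TILs, among them the lysyl hydroxylase gene Plod2 (-2.22 ± 0.40) and the prolyl hydroxylase genes P3h2 and P3h3, and 12 of 16 in CD8+ TILs, led by Plod1 (-2.20 ± 0.34) and P3h1. Of the processing and cross-linking genes, 5 of 9 were called lower in CD4+ TILs, among them the procollagen N-proteinase Adamts2 (-2.77 ± 0.47) and the lysyl oxidases Loxl2 and Loxl1, and 5 of 6 in CD8+ TILs, among them Loxl2, Pcolce and Bmp1. Of the matrix proteins that bind fibrils, 5 of 7 were called lower in each population, with Postn at -4.04 ± 0.50 in CD4+ and Sparc at -4.73 ± 0.84 in CD8+ TILs. Laminins and other basement membrane partners gave 5 of 13 and 9 of 11, with Nid1, which bridges laminin and type IV collagen, at -3.19 ± 0.45 and -5.93 ± 1.11. Of the collagen receptors tested, 1 of 8 was called lower in each population, which is near the share over all genes. It was the discoidin receptor Ddr2 (-2.84 ± 0.45 and -2.97 ± 0.62), and the inhibitory receptor Lair1 was higher in Yap-cKO CD8+ TILs (1.48 ± 0.32). Degradation genes gave 2 of 8, Mmp14 and Timp3, and 5 of 9, led by Timp3, Mmp14 and Timp1. The medians of these 6 lists in CD4+ TILs were -1.57, -2.62, -3.02, -1.75, -0.37 and -2.07 in the order given, against 0.14 over all genes.

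Markers of other cell types differed with genotype in the same libraries. Against the same 6.66% and 9.14% of all genes called lower, the counts per list were as follows. In CD4+ TILs, 5 of 12 endothelial markers were called lower in Yap-cKO mice, 8 of 10 pericyte markers, 7 of 10 melanocyte and melanoma markers and 1 of 3 tested of the 10 fibroblast markers. In CD8+ TILs the counts were 11 of 12, 9 of 10, 5 of 10 and 0 of 3. The endothelial sum, over genes such as Kdr and Emcn, was 220 to 611 CPM in WT against 86.2 to 227 CPM in Yap-cKO CD4+ TILs, and 170 to 2464 CPM against 71.4 to 98.3 CPM in CD8+ TILs. The pericyte sum, over genes such as Pdgfrb and Rgs5, was 199 to 659 CPM against 11.2 to 77.7 CPM in CD4+ and 154 to 999 CPM against 22.9 to 57.3 CPM in CD8+ TILs. These ranges separated the genotypes except for the endothelial sum in CD4+ TILs, where they overlapped. The melanocyte and melanoma sum was 5578 to 16820 CPM against 185 to 2458 CPM in CD4+ TILs and 3892 to 13640 CPM against 47.3 to 2655 CPM in CD8+ TILs. The fibroblast sum was low, at 6.03 to 15.4 CPM in WT against 1.59 to 7.85 CPM in Yap-cKO CD4+ TILs. In CD8+ TILs it was 5.82 to 13.6 CPM against 1.84 to 6.22 CPM, and both pairs of ranges overlapped. The T lineage sum was lower in WT (1520 to 6130 CPM in CD4+ and 1720 to 5419 CPM in CD8+ TILs) than in Yap-cKO mice (6994 to 10760 CPM and 6320 to 7856 CPM). Of these lists, only the fibroblast marker Tcf21 in WT CD8+ TILs was at 0 in all 4 libraries of a TIL group. The part of these cell types in the collagen differences was not tested. Keratinocyte markers summed to at most 3.59 CPM in the tumor libraries, with Krt14 and Krt15 at 0 in all 24 of them. B cell markers summed to at most 32.6 CPM in TILs with 0 called. Of 10 macrophage and monocyte markers 7 were called higher in Yap-cKO CD8+ TILs, against 3.03% of all genes called higher. They summed there to 1923 to 2841 CPM against 524 to 1190 CPM in WT. In CD4+ TILs their sums overlapped, at 384 to 824 CPM in WT and 216 to 955 CPM in Yap-cKO mice.

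**Figure D5:**
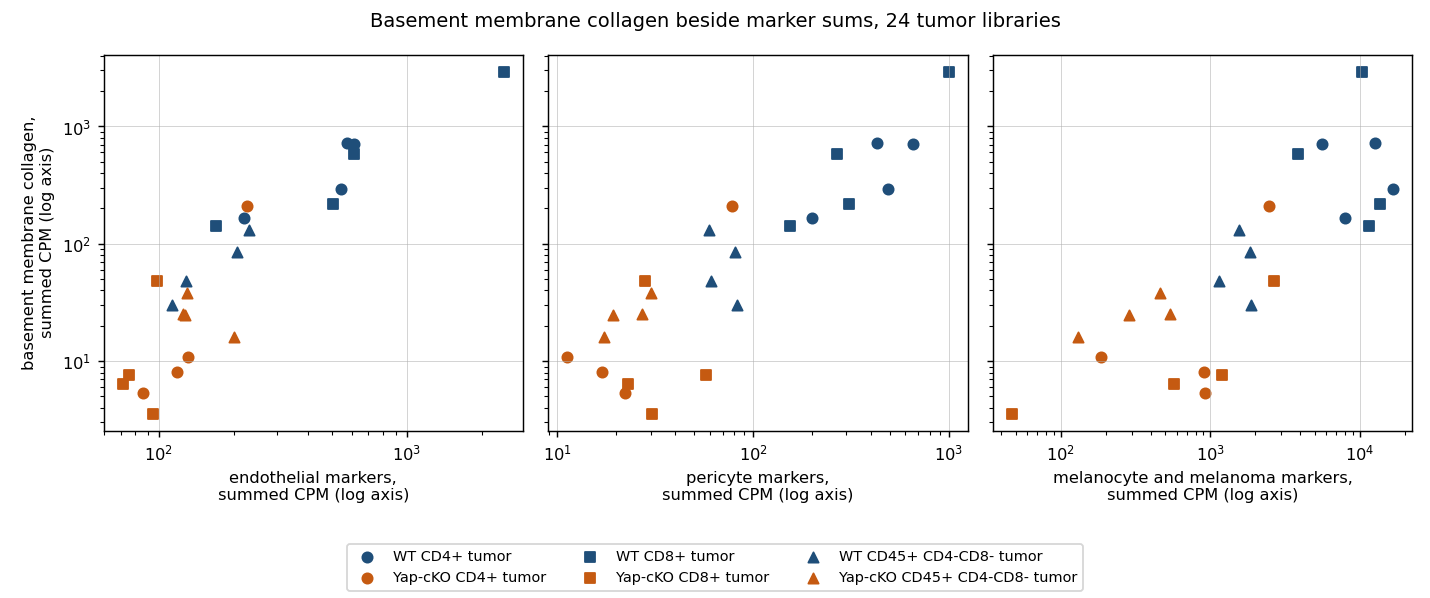
Summed CPM of the 6 basement membrane collagen genes (y axis, log) against the summed CPM of 12 endothelial, 10 pericyte and 10 melanocyte and melanoma markers (x axes, log) in the 24 tumor libraries, with colour for genotype and shape for the sorted population. WT CD8+ TIL replicate 2 is highest in collagen (2929 CPM) and in the endothelial (2464 CPM) and pericyte (999 CPM) sums, and Yap-cKO CD4+ TIL replicate 3 lies above the other Yap-cKO TILs in all 3 panels' collagen values.

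In CD45+ cells from tumors, 22 members were tested and 0 were called by edgeR in either direction, while 0.991% of all 13628 genes were called. At an unadjusted p under 0.05 there were 5 of the 22 members, near the share of 17.8% over all genes. DESeq2 called 3 members and 531 of all 13628 genes. The 5 were Col4a2 (-1.55 ± 0.42, adjusted p = 0.105), Col4a1 (-1.54 ± 0.44, adjusted p = 0.118), Col18a1 (-1.48 ± 0.48), Col15a1 (-1.53 ± 0.52) and Col6a3 (-1.71 ± 0.67). Col4a1 stood at 18.4, 90.7, 31.6 and 59.7 CPM in WT libraries and at 10.3, 19.0, 25.1 and 14.8 CPM in Yap-cKO mice, with overlapping groups. Fibrillar genes differed less in size. Col1a1 stood at 3.02, 2.40, 4.76 and 9.02 CPM against 5.23, 3.21, 13.3 and 3.10 CPM (0.36 ± 0.54), and Col3a1 at 5.84, 10.8, 20.9 and 8.90 CPM against 9.22, 3.08, 16.6 and 9.37 CPM (-0.30 ± 0.48). Endothelial markers summed to 113 to 232 CPM in WT libraries and 125 to 201 CPM in Yap-cKO CD45+ cells, pericyte markers to 59.5 to 82.8 CPM and 17.2 to 30.0 CPM, and melanocyte and melanoma markers to 1145 to 1871 CPM and 130 to 536 CPM. Of these lists 2 of 10 tested endothelial, 1 of 10 pericyte and 6 of 10 melanoma markers were called lower. Fibroblast markers summed to 9.22 to 30.2 CPM in WT libraries and 18.3 to 31.5 CPM in Yap-cKO CD45+ cells, with overlap. Among them Twist1 and Twist2 were at 0 in all 4 Yap-cKO libraries. The part of all these cell types in the values was not tested.

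In TDLNs, 8 members were tested in CD4+ cells, 8 in CD8+ cells and 11 in CD45+ cells, and edgeR and DESeq2 each called 0 in all 3 comparisons, with 0 at an unadjusted p under 0.05. Over all genes, 0.0462%, 0.0158% and 0.0596% were called there and 1.75%, 0.949% and 2.91% had an unadjusted p under 0.05. Col4a1 in CD45+ cells of TDLNs, at 1.80, 2.60, 1.53 and 1.06 CPM in WT libraries and 0.594, 0.455, 1.98 and 0.671 CPM in Yap-cKO mice, had the largest difference of the 11 members tested in that population (-0.92 ± 0.52). Col1a1, with at most 17 counts in any TDLN library, and Col3a1, with at most 11, passed the filter in none of these 3 comparisons, so a difference was not detectable at this depth. The interaction of tissue and genotype tested whether the genotype difference in tumors departed from that in TDLNs. In CD8+ cells 2 of 31 members were called, both more negative in tumors, against 0.422% of all genes in that direction and 0% in the other. They were Col15a1 (-8.13 ± 1.40, adjusted p = 0.0297) and Col18a1 (-6.29 ± 1.20, adjusted p = 0.0404), and Col15a1 passed the filter through WT tumor libraries alone. Both calls were lost with average transcript length offsets (adjusted p = 0.0519 for Col15a1 and 0.176 for Col18a1) and under a replicate block. The count was also 0 when any 1 of the 4 WT TDLN libraries, Yap-cKO TDLN replicate 3 or 4, or Yap-cKO tumor replicate 1, 2 or 4 was left out, so these calls depend on single libraries. In CD4+ cells 0 of 27 members were called by edgeR, with 5 at an unadjusted p under 0.05. Over all genes, edgeR called 1.36%, and 14.8% had an unadjusted p under 0.05. DESeq2 called 4 of the members and 842 of all 15087 genes. In CD45+ cells 0 of 26 members were called by edgeR and by DESeq2, with 0 at an unadjusted p under 0.05, against 0% of all genes called and 8.38% at that p.

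The comparison of tumor with TDLN asks how collagen RNA in a sorted population depended on the tissue. In WT CD4+ cells, 18 of 25 tested members were higher in tumors and 2 were lower, against 22.9% and 14.4% of all genes. Of the 25, 13 passed the filter through the tumor libraries alone and had to be higher. In WT CD8+ cells 18 of 27 were higher (16 passed through tumor libraries alone) and 2 lower, against 22.5% and 15.2%, and in WT CD45+ cells 15 of 23 were higher (8 through tumor libraries alone) and 0 lower, against 21.9% and 18%. In Yap-cKO mice the calls were 9 higher and 1 lower of 16 in CD4+ cells (7 through tumor libraries alone, against 12.4% and 6.07% of all genes), 4 higher and 0 lower of 13 in CD8+ cells (1 through tumor libraries alone, against 10.9% and 5.01%), and 7 higher and 1 lower of 15 in CD45+ cells (5 through tumor and 1 through TDLN libraries alone, against 21.8% and 18.5%). Over the 24 TDLN libraries, endothelial markers summed to 90.2 to 353 CPM, pericyte markers to 6.53 to 22.2 CPM, fibroblast markers to 0.349 to 12.8 CPM and melanocyte and melanoma markers to 5.81 to 28.7 CPM, with the pericyte markers Pdgfrb and Cspg4 at 0 in all 4 WT CD4+ libraries. The part of these cells in the tissue differences was not tested. The WT and Yap-cKO comparisons share no libraries, and the difference between them is the interaction given above.

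For many members the TDLN libraries held almost no reads. Col3a1 and Col4a2 had 0 counts in all 4 WT CD4+ TDLN libraries. Against the floor of 3 counts per library, their means in WT CD4+ TILs were at least 670-fold and 910-fold higher. The mean of Col13a1, also at 0 there, was at least 19.2-fold higher. Col4a2 was at 0 in WT CD8+ TDLN libraries as well, and its mean in WT CD8+ TILs was at least 1597-fold higher. That mean rests largely on replicate 2, at 855 CPM against 39.2 to 174 CPM in the other libraries, so the bound does not hold for each library. Of the 18 genes higher in WT CD4+ TILs, 5 did not pass through the tumor libraries alone. This means only that at least 1 TDLN library also held 10 or more counts. The highest TDLN library held 37 counts of Col18a1, 17 of Col1a1, 17 of Col15a1, 14 of Col1a2 and 13 of Col4a1. These changes are therefore not free of the filter. Col18a1, at 0.923 to 1.92 CPM in WT CD4+ TDLN libraries, was higher in the TILs by 5.99 ± 0.61 (adjusted p = 1.19e-05) and Col1a1, at 0.170 to 0.981 CPM there, by 7.17 ± 0.74 (adjusted p = 1.24e-05). The others were Col1a2, Col15a1 and Col4a1, and Col4a1 had 15 counts in all over the 4 TDLN libraries, 13 of them in 1 library. In WT CD8+ cells 2 of the 18 did not pass through tumor libraries alone, Col3a1 and Col8a1, which had 10 and 14 counts in all in the TDLN libraries. Col4a1, Col16a1 and Col18a1 passed through the tumor libraries there, with 10, 5 and 26 TDLN counts, so that their fitted changes are not given. In WT CD45+ cells Col4a1 (4.78 ± 0.53, adjusted p = 8.51e-05), Col18a1 (4.55 ± 0.54) and Col4a2 (5.33 ± 0.71) were among the 7 higher genes that did not pass through tumor libraries alone. Col17a1, a hemidesmosome collagen of epithelia, was another, at 2.07 ± 0.79 with overlapping groups. Col3a1 and Col5a1 passed there through the tumor libraries, with 24 and 5 counts in all in the TDLN libraries.

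In Yap-cKO mice most of the higher genes of CD4+ and CD45+ cells passed the filter through tumor libraries alone. In CD8+ cells Col3a1 (2.77 ± 0.66), Col4a1 (5.34 ± 1.37) and Col18a1 (2.08 ± 0.57) did not, with adjusted p from 0.0145 to 0.0250, although all 17 Col4a1 counts in TDLNs came from 1 library. Col4a2, the other gene higher in these cells, had 5 counts in all in the TDLN libraries. In CD4+ cells the 2 that did not were Col18a1 (4.42 ± 0.78, adjusted p = 0.0031) and Col1a2 (3.38 ± 1.01, adjusted p = 0.0373), and in CD45+ cells they were Col4a1 (4.16 ± 0.49, adjusted p = 3.31e-05) and Col11a2, described next. The fitted changes of all genes with few counts in one tissue depend on the prior count of the fit.

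Col11a2 and Col23a1 were called lower in tumors in some of the T cell comparisons. Col11a2 encodes a minor chain of cartilage fibrils, and it was the collagen gene with the highest CPM in CD4+ TDLN libraries, at 6.69, 4.46, 6.22 and 5.44 CPM in WT libraries and 7.22, 5.13, 5.99 and 8.59 CPM in Yap-cKO mice. In CD4+ TILs it stood at 0.701, 0.561, 3.01 and 2.00 CPM in WT libraries and 1.47, 1.73, 1.59 and 0.951 CPM in Yap-cKO mice, below every TDLN library. It was called lower in tumors, with log2 fold changes of -1.78 ± 0.52 in WT CD4+ cells (adjusted p = 0.0148), -1.33 ± 0.44 in WT CD8+ cells (adjusted p = 0.0286) and -2.29 ± 0.38 in Yap-cKO CD4+ cells (adjusted p = 0.00225), and was not called in Yap-cKO CD8+ cells (-0.94 ± 0.42, adjusted p = 0.143). Scaled on T lineage genes, which moved the median of all genes by 1.65 and 1.73 in WT CD4+ and WT CD8+ cells, Col11a2 was at -0.52 in WT CD4+ cells and turned to 0.23 in WT CD8+ cells, neither called, while in Yap-cKO CD4+ cells, where that shift was 0.27, it stayed called at -2.05. Col23a1, a transmembrane collagen, stood at 2.78, 2.61, 4.01 and 3.03 CPM in WT CD8+ TDLN libraries against 0.897, 1.04, 0.831 and 1.10 CPM in WT CD8+ TILs (-1.59 ± 0.40, adjusted p = 0.00765), and in WT CD4+ cells it was called at -1.76 ± 0.62 (adjusted p = 0.0334). It was not called in Yap-cKO CD8+ cells (-1.19 ± 0.53, adjusted p = 0.138) or in Yap-cKO CD4+ cells (-0.74 ± 0.58, adjusted p = 0.402). With T lineage scaling Col23a1 turned to 0.15 and 0.08 in these comparisons and was not called. In Yap-cKO CD45+ cells Col11a2 had the other direction, at 5.60, 3.52, 4.39 and 1.85 CPM in tumors against 1.49, 0.506, 0.721 and 1.16 CPM in TDLNs (1.91 ± 0.45, adjusted p = 0.00415). Col22a1, a fibril associated gene of tissue junctions that passed the filter through TDLN libraries alone, was lower in those tumor cells (-1.26 ± 0.44, adjusted p = 0.0289), a call lost under DESeq2 (adjusted p = 0.0788).

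Within tumors, CD45+ cells were compared with CD4+ and CD8+ TILs combined. The 8 TIL libraries of a genotype entered as independent, although CD4+ and CD8+ TILs of the same replicate number deviated together. In WT mice 34 members were tested, 20 were lower and 3 were higher in CD45+ cells, against 18.6% and 15.7% of all genes. The groups overlapped for 13 of the called genes. Col6a4, Col9a1 and Col22a1 passed the filter through the TIL libraries alone, and 1 of them was among the calls. The smallest p was that of Col16a1 (-2.76 ± 0.40, adjusted p = 9.09e-05), at 1.38 to 3.11 CPM in CD45+ cells against 4.601 to 21.1 CPM in the 8 TIL libraries, without overlap. Col5a1 (-3.53 ± 0.70), Col4a1 (-3.22 ± 0.85), Col3a1 (-3.13 ± 0.88) and Col1a1 (-3.39 ± 0.86) were among the 20, and the groups overlapped for the latter pair. The 3 higher genes were Col17a1 (3.59 ± 0.74), at 1.13, 1.57, 0.828 and 0.498 CPM in CD45+ cells, the network forming gene Col8a2 (2.97 ± 0.89) and Col23a1 (1.31 ± 0.45). Their groups overlapped in each case, and the Col8a2 call was lost with length offsets (0.47, adjusted p = 0.806). In Yap-cKO mice 2 of 24 members were lower, Col9a3 (-1.68 ± 0.57) and Col22a1 (-1.46 ± 0.52), and 2 were higher, Col11a2 (1.35 ± 0.34) and Col17a1 (3.14 ± 0.81), against 14.6% and 17% of all genes. The groups overlapped for all 4 of these genes. Col9a3 and Col22a1 passed the filter through the TIL libraries alone and had to be lower. Of these Yap-cKO calls, 2 were lost with no count filter, 3 with length offsets and 1 under a replicate block. Col4a1 was at 0.02 ± 0.92 in Yap-cKO mice.

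CD4+ and CD8+ TILs of the same genotype were compared next. In WT mice 0 of 31 members were called by edgeR and by DESeq2, with 1 at an unadjusted p under 0.05, against 0.119% of all genes called and 3.79% at that p. In Yap-cKO mice 1 of 19 was called, Col18a1, which was higher in CD4+ TILs, against 1.36% of all genes called higher and 1.13% lower. Its 4 values in CD4+ TILs (12.5 to 37.4 CPM) all lay above those in CD8+ TILs (0.891 to 3.14 CPM), and the log2 difference was 3.74 ± 0.55 (adjusted p = 0.00686). For Col3a1, next in order, the difference of 2.18 ± 0.59 was not called (adjusted p = 0.107).

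The ratio of chains that assemble with each other was taken library by library. In the 25 libraries with at least 10 counts of both, the CPM ratio of Col4a1 to Col4a2 lay between 1.18 and 3.87 with a median of 2.16, while Col4a1 itself ranged 1338-fold, from 1.54 to 2066 CPM. The ratio per length, from TPM, had a median of 2.35. The ratio of Col1a1 to Col1a2 lay between 0.490 and 2.13 in 24 libraries (median 1.39) and that of Col6a1 to Col6a2 between 0.519 and 2.25 in 20 libraries (median 1.09). Col3a1 to Col5a2, neighbours on chromosome 1 whose products do not form a common molecule, ranged from 2.27 to 26.5 in 16 libraries (median 8.19). For Col4a3 and Col4a4, a pair of chains with few counts, the ratio lay between 0.294 and 2.31 in 6 libraries, a 7.85-fold range against 4.49-fold for Col4a3 itself. These ratios are descriptions of libraries that share groups. In the annotation (GENCODE M21, GRCm38), Col4a1 (chr8:11198423-11312826, minus strand) and Col4a2 (chr8:11312805-11449287, plus strand) lie head to head and their 5′ ends overlap by 22 bases, Col4a4 and Col4a3 lie head to head 71 bases apart on chromosome 1, and Col3a1 (chr1:45311538-45349706, plus strand) and Col5a2 lie tail to tail, 24614 bases apart. Counting did not use strand as far as the sources state, so reads from the overlap of Col4a1 and Col4a2 cannot be assigned with certainty.

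The remaining members stayed low. In all, 10 genes (Col2a1, Col4a6, Col6a5, Col6a6, Col9a2, Col11a1, Col19a1, Col24a1, Col25a1 and Col28a1) were tested in none of the 19 comparisons. Of the 34 tested in at least 1, 26 were called in at least 1, and Col4a3, Col6a4, Col7a1, Col10a1, Col14a1, Col20a1, Col26a1 and Col27a1 in none. Col27a1, a fibrillar gene of cartilage, ranged only from 0.479 to 2.94 CPM over the 48 libraries. Col2a1, the main cartilage collagen, stayed at or under 0.455 CPM, and Col28a1, found around peripheral nerves, had more than 3 counts in a single library.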

How the data were processed

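Per the labels and the study's methods, RNA of sorted cells was amplified with the SMART-Seq v4 kit and sequenced as paired reads, trimmed with Trimmomatic and quantified with Salmon 0.9.1 against mouse transcripts (mm10 in the submitters' notes). The authors deposited, for each library, Salmon's expected counts per transcript, with TPM (a length-scaled share of transcripts) and effective lengths. Expected counts and TPM were summed to 34932 genes here through GENCODE M21 names, which matched 111787 of 112092 transcripts and left out 0.0488 to 0.18% of counts. Sums were rounded to whole counts. A gene was tested in a comparison where 4 or more of its libraries held 10 or more counts, with edgeR 4.0.16 (TMM scaling, quasi-likelihood test, Benjamini-Hochberg adjustment over all tested genes) in R 4.3.3. Only the groups of a comparison entered its fit. CPM used a single TMM scaling over the 48 libraries. DESeq2 1.42.0, no count filter, average transcript length offsets, T lineage scaling, the replicate number as a block, and each library left out were the alternatives. Of 72 replicate pairs, none agreed within sampling noise.

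On data simulated for the CD4+ tumor comparison (14205 genes), 90% and 91.8% of genes changed by 3 on the log2 scale were called, in the 2 directions, and 14.3% and 16% of those changed by 1.5. The collagen genes, their classes and the other gene lists were chosen with earlier results of these data known. The genes named were Col1a1, Col3a1, Col4a1 and Col4a2, up to 12 called members of smallest p in each comparison, the leading pair of each class by mean TPM over the 24 tumor libraries, and up to 3 called genes of smallest p in each other list. Other members were named after their values were seen. CD4+ and CD8+ TILs of 1 replicate number deviated together in every pair (correlations 0.116 to 0.752). In neither genotype did every library correlate best with the library of its own number. The labels state no shared animal, so whether the numbers pair these samples is not settled. No count intervals are given beyond the 3-count floor, which covers counting error only.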

Additional observations from a re-analysis of the deposited data

Results flagged for a closer look

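Libraries that stood apart from the other 3 of their group by Dixon's gap ratio at the 95% level were found in 27 of 168 checks (16.1%). That level gives about 1 in 20 for independent values with a normal spread. These checks share libraries and genes and used CPM without logs, so this rate is not their chance rate. The values below are CPM.

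WT CD8+ TIL replicate 2 stood above its group in the fibrillar sum (678), the basement membrane sum (2929), the beaded filament sum (391), the network forming sum (23.6), the sum of all collagen genes (4460), Col1a1 (115), Col3a1 (299), Col4a1 (2066) and Col4a2 (855). WT CD8+ TIL replicate 3 stood apart in the sum of Col26a1 and Col28a1 (2.05). Yap-cKO CD4+ TIL replicate 3 stood above its group in the basement membrane sum (209), the beaded filament sum (37.5), the fibril associated sum (13.4), all collagen genes (367), Col1a1 (18.3), Col4a1 (119) and Col4a2 (88.1). Yap-cKO CD8+ TIL replicate 3 stood above its group in the basement membrane sum (48.6), all collagen genes (80.8), Col4a1 (28.7) and Col4a2 (16.5).

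In TDLNs the levels were low. Replicate 1 of WT CD45+ cells stood apart in the fibril associated sum (5.40), and replicate 3 of Yap-cKO CD8+ cells in all collagen genes (33.2) and in Col4a1 (0.796). WT CD8+ replicate 4 stood apart in Col3a1 (0.551), WT CD4+ replicate 3 in Col4a1 (0.736) and Yap-cKO CD45+ replicate 3 in Col4a1 (1.98).

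The genotype difference of CD8+ cells departed between tumor and TDLN, by the edgeR interaction term, for Col15a1 (-8.13 on the log2 scale) and Col18a1 (-6.29). Both calls were lost with average transcript length offsets, under a replicate block and without certain single libraries. Col15a1 passed the filter through WT tumor libraries alone.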

How the results depend on the processing

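The values here are counts of members called, against those of the report. In CD4+ TILs (11) the count was 19 with no count filter, 18 with T lineage scaling, 0 against WT replicate 4 alone and 19 without the highest library of each genotype, and 2 to 20 when single libraries were left out. In CD8+ TILs (14) it was 0 against WT replicate 4 alone and 0 to 18 without single libraries. The 2 comparisons with WT replicate 4 alone called 0 and 1 of all genes and so say nothing about the members. In CD45+ tumor cells (0) DESeq2 gave 3, with 531 of all 13628 genes called. Leaving out libraries gave 0 to 1 there, in which 1 came without Yap-cKO replicate 3. For tumor against TDLN, Yap-cKO CD4+ cells (10) gave 6 under DESeq2 and 9 to 11 without single libraries, Yap-cKO CD8+ cells (4) gave 1 with length offsets and 2 to 5, of which 2 came without tumor replicate 2 or 3, and Yap-cKO CD45+ cells (8) gave 14 with no filter and 7 to 14, with 13 or 14 without TDLN replicate 1 or 2 or tumor replicate 2. CD45+ cells against TILs in Yap-cKO mice (4) gave 2 with no filter, 1 with length offsets and 2 to 6, with 2 without CD8+ replicate 3 or CD45+ replicate 1 or 3. CD4+ against CD8+ TILs in Yap-cKO mice (1) gave 2 under DESeq2, with 734 of all 13902 genes called, and 1 to 1. The interaction in CD4+ cells (0) gave 4 under DESeq2, 2 with no filter and 8 with T lineage scaling. Leaving out libraries gave 0 to 7 there, with 7 without Yap-cKO tumor replicate 3. Over all 15087 genes the calls were 205 by edgeR, 842 under DESeq2 and 2172 with T lineage scaling. In CD8+ cells (2) the interaction gave 12 under DESeq2, 11 with no filter, 0 with length offsets, 17 with T lineage scaling and 0 to 7. Over all 14937 genes the calls were 63 by edgeR, 719 under DESeq2 and 3656 with T lineage scaling. Calls over all genes are not given here for the other settings, so those counts of members have no share beside them. Leaving out libraries gave 19 to 22, 19 to 23 and 14 to 15 for tumor against TDLN in WT CD4+, CD8+ and CD45+ cells, 20 to 23 for WT CD45+ cells against TILs, and 0 to 0 in TDLN genotype comparisons, CD4+ against CD8+ WT TILs and the CD45+ interaction. The cause of these changes was not tested.

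T lineage scaling turned 3 named changes between tumor and TDLN to the other sign: Col23a1 in WT CD4+ cells (0.082), Col23a1 in WT CD8+ cells (0.148) and Col11a2 in WT CD8+ cells (0.235). In the other comparisons, same-numbered libraries did not deviate together in every pair by the correlation check. Under a replicate block, 0 of the 14 calls in CD8+ TILs and 0 of the 2 interaction calls in CD8+ cells were left. In CD4+ TILs 14 members were called. No call changed between CD4+ and CD8+ TILs, where same-numbered libraries deviated together (Col18a1 3.68, adjusted p = 0.00987).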
